A study of Mus musculus with 27 samples.

Results

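Full-length NFIA-expressing C2C12 cells were compared with control C2C12 cells at day 7 of adipocyte differentiation, after both had been treated with 10 µM forskolin for 4 h. The comparison used 6 of the 27 samples of the series, 3 of each kind, and covered all genes of the deposited tables. C2C12 is an established mouse myoblast line, and it forms contractile muscle fibers when its growth factors are withdrawn. NFIA was brought in with a pMXs retroviral vector as a 3xFLAG-tagged protein, so the cells are a gain-of-function model on a myoblast background, and the retroviral promoter rather than the gene's own drives the introduced mRNA. All groups had received the same adipogenic medium with isobutylmethylxanthine, indomethacin, dexamethasone, insulin, T3 and rosiglitazone, followed by medium with insulin, T3 and rosiglitazone. Controls were thus exposed to the PPARγ agonist and to forskolin as well, and the labels give the introduced NFIA as what differed. The same kinds of cells at day 7 without forskolin (3 control and 3 full-length NFIA samples) and cells with the Δpro#3 mutant of NFIA under forskolin (3 samples), which lacks the C-terminal end of the proline-rich domain, were used where stated. Nothing in the labels says whether the 3 replicates of a group came from separate cultures, so p-values measure only the spread between these samples.

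Forskolin activates adenylyl cyclase and thereby raises cyclic AMP in the cell. Cyclic AMP releases the catalytic subunits of protein kinase A, which phosphorylate the transcription factor CREB and, in adipocytes, the lipid droplet coat protein perilipin and hormone-sensitive lipase. In brown adipocytes noradrenaline acts through this pathway, and its known targets include the uncoupling protein Ucp1, the coactivator Ppargc1a (PGC-1α) and the deiodinase Dio2. NFIA belongs to the nuclear factor I family of DNA-binding proteins and has a known part in the formation of brown fat cells. PPARγ and C/EBPα are the central transcription factors of adipogenesis, and MyoD and myogenin hold the matching place in myogenesis.

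The introduced gene was checked in each sample. Nfia (chr4:97439425-97868605 of mm9, plus strand) was at 0.0944, 0.195 and 0.139 FPKM in the control samples and at 497, 524 and 594 FPKM in the full-length NFIA samples, so the groups did not overlap. FPKM is a fragment count scaled to the length of the gene and to the total fragments of the sample, and the reads of the introduced and of the endogenous Nfia cannot be told apart. The log2 fold change of Nfia was 8.88 ± 0.10 (SE; adjusted p = 7.72e-13). Fold changes here are differences between group means of log2(FPKM + 1), which understates the change of low genes. Calls required both an adjusted p under 0.05 and more than 3-fold on this scale, and the verbs rose and fell are kept for called genes. Of the other family members, Nfic went from 50.8 ± 1.57 (SD, n = 3, as for other values written with ±) to 20.1 ± 1.71 FPKM, with a log2 fold change of -1.30 ± 0.10 that stayed inside 3-fold (adjusted p = 4.14e-07). Nfix was at 15.1 ± 0.290 and 18.9 ± 1.17 FPKM (log2 fold change 0.30 ± 0.071). Nfib was at 4.32 ± 0.258 and 3.94 ± 0.383 FPKM, a difference that missed the threshold (adjusted p = 0.217).

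Depth of the 6 samples ranged from 12714515 to 21969037 fragments with a median of 16354353. Full-length NFIA replicate 1 stood further from replicates 2 and 3 (chi-square per gene 13.5 and 15.0) than these did from each other (3.40) or than the control samples did among themselves (3.31 to 6.64). Without it, 520 genes were called higher and 472 lower. The 10 genes with the most fragments took 6.57 ± 0.206% of all fragments in control and 8.19 ± 0.321% in full-length NFIA cells. H19, the imprinted non-coding RNA of fetal muscle, headed the control cells with 10825 ± 701 FPKM, and Fabp4 headed the full-length NFIA cells.

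Among 12121 genes tested, 515 rose and 457 fell in full-length NFIA cells, which is 4.25% and 3.77% of those tested. At an adjusted p under 0.05 alone 8785 genes passed (72.5%), so passing that threshold was the common outcome and the size of the change is what separates genes here. The 3 samples of one group lay wholly above or below the 3 of the other for 9197 genes (75.9%). The median gene was shifted: its log2 fold change was -0.17, and 3088 of the genes past the threshold were higher against 5697 lower (35.2% higher). After the samples were rescaled by median ratios, with factors of 1.04 to 1.07 for control and 0.924 to 0.928 for full-length NFIA samples, the median became -0.01. The split then was 4196 higher against 4243 lower (49.7% higher), and 603 genes were called higher and 397 lower. Both settings called 912 of the 972 genes in the same direction. Changes below are as deposited, and the median of all genes, -0.17, is the level against which a list's median should be read. Counts of list members called should be read against the shares of all genes tested that rose and fell, 4.25% and 3.77%.

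**Figure D1:**
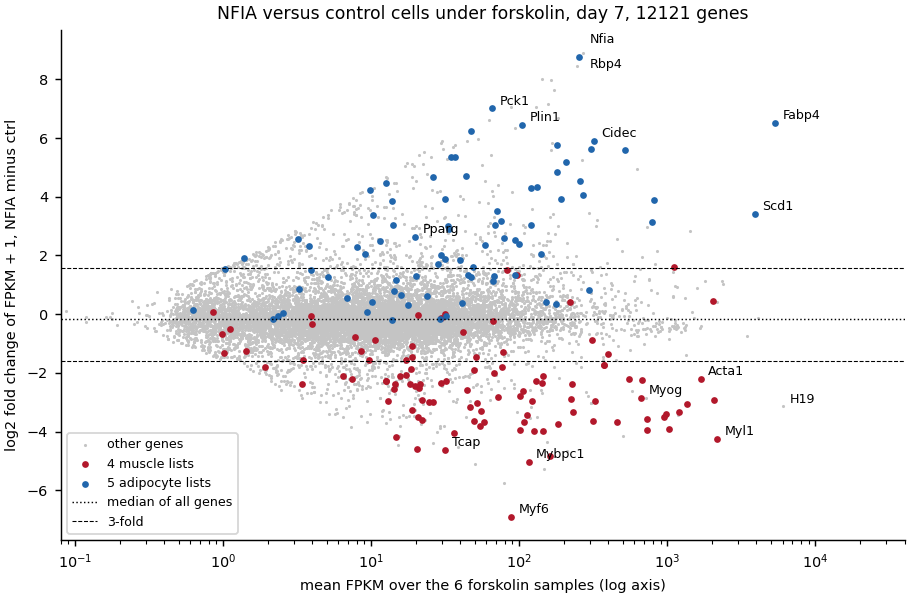
All 12121 genes tested, with the mean FPKM of the 6 samples on the x axis (log axis) and the log2 fold change of full-length NFIA against control cells under forskolin on the y axis (blue, members of 5 adipocyte lists, red, of 4 muscle lists, gray, other genes). Dashed lines mark 3-fold and the dotted line the median of all genes at -0.17, and the blue points lie mostly above and the red points mostly below these lines.

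Identity of the cells was read from short lists of cell type markers. All 7 skeletal muscle markers fell, with a median log2 fold change of -2.24, and all 6 adipocyte markers rose, with a median of 5.83, where 3.77% and 4.25% of all genes tested fell and rose. Their summed level in the 3 control samples ranged from 8584 to 10354 FPKM for muscle and from 291 to 300.3 FPKM for adipocyte markers. In the 3 full-length NFIA samples it ranged from 1425 to 1730 FPKM and from 12798 to 13506 FPKM. Both marker sets were thus measured in each group. Control cells were rich in muscle mRNA and had some mRNA of adipocyte markers, most of it from Lpl and Fabp4. Full-length NFIA cells kept a part of the muscle mRNA. Summed over 4 muscle lists with 111 genes, 7.07 ± 0.503% of all fragments were muscle in control and 1.92 ± 0.0690% in full-length NFIA cells. Within these, sarcomere genes went from 4.98% to 0.667%, whereas the energy metabolism list, which holds the broadly expressed Ldha, was at 0.789% and 0.918%. Summed over 5 adipocyte lists with 95 genes, the shares were 0.881 ± 0.0341% and 7.58 ± 0.377%. The largest part of both came from the fatty acid synthesis list, which holds Scd1, at 0.519% and 4.10%, followed by lipid uptake and storage at 0.200% and 2.79%. In bulk RNA, fewer cells of a type and less RNA per cell cannot be told apart.

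Markers of other cell types were mostly under the filter or not called. Of 6 macrophage markers 2 were tested and none was called, with Ptprc and Adgre1 at 0 in all 6 samples and a summed level of 25.1 to 32.2 FPKM in control and 15.2 to 16.8 FPKM in full-length NFIA samples. Of 5 endothelial markers 1 was tested, Kdr, named after its values were seen, and it was not called by the main test and was called higher by limma-voom on fragment counts (log2 fold change 4.32), at a sum of the 5 of 0.152 to 0.189 and 1.23 to 1.44 FPKM. Of 5 osteoblast markers, with a sum of 6.46 to 7.63 and 25.4 to 32.3 FPKM, Bglap, the osteocalcin gene, rose from 0.570, 0.337 and 0.821 to 29.7, 24.8 and 23.2 FPKM, and its near-identical neighbour Bglap2 makes that value uncertain. Among the same markers Runx2, the osteoblast master factor, was at 6.45 ± 0.318 and 2.44 ± 0.262 FPKM and Ibsp was at 0. Of 5 chondrocyte markers 1 was tested and not called, with Acan and Col9a1 at 0, at a sum of 3.72 to 4.29 and 8.45 to 9.04 FPKM. Of 5 smooth muscle markers, with a sum of 882 to 995 and 330.1 to 492 FPKM, the calponin gene Cnn1 rose from 0.265 ± 0.0555 to 3.06 ± 0.341 FPKM, whereas Smtn (log2 fold change -1.51 ± 0.14, and -1.65 without full-length NFIA replicate 2) and Tagln (-1.40 ± 0.13) were lower without reaching 3-fold. Of 6 mesenchymal progenitor markers, with a sum of 297 to 320 and 626 to 754 FPKM, Cd34, a surface antigen of progenitors in fat, rose from 12.8, 10.9 and 13.9 to 115, 116 and 114 FPKM, and Dpp4 was at 0. Pdgfra, a receptor of such progenitors, was at 10.4 ± 0.568 and 3.58 ± 0.0684 FPKM (log2 fold change -1.32 ± 0.073). The part of these other types in the results below was not tested.

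Transcription factors of adipogenesis came first among the adipocyte genes. Of 21 listed 14 passed the filter on low values, 5 rose and none fell, and their median log2 fold change was 0.61 against -0.17 over all genes. Pparg (chr6:115311239-115440419), the PPARγ gene, was at 4.64, 4.84 and 4.98 FPKM in control and 35.6, 33.5 and 35.9 FPKM in full-length NFIA samples. The 3 full-length NFIA samples lay far above the controls, and the log2 fold change was 2.63 ± 0.07 (adjusted p = 1.57e-10). Cebpa, the C/EBPα gene, stood at 11.3, 11.5 and 10.7 FPKM and 48.0, 49.2 and 47.8 FPKM, a log2 fold change of 2.02 ± 0.066. Nr1h3, the liver X receptor α gene and a sterol sensor, rose from 0.922 ± 0.151 to 26.9 ± 2.26 FPKM, a log2 fold change of 3.86 ± 0.14. Ppargc1a, the coactivator of mitochondrial genes, went from 2.06, 2.25 and 1.78 to 12.01, 14.5 and 15.5 FPKM, a log2 fold change of 2.30 ± 0.12. Cebpb, an early adipogenic factor chosen after its values were seen, was at 35.7 ± 1.68 and 46.6 ± 4.18 FPKM and was not called. Zfp423, a factor of preadipocyte commitment, stayed under the filter at 0.137, 0.0754 and 0.126 FPKM in control and 0.846, 0.618 and 0.829 FPKM in full-length NFIA samples. Its 3 NFIA samples lay above the 3 controls, and the exact permutation test of 3 against 3 gave p = 0.1, the smallest it can give.

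Genes of lipid uptake and storage rose widely. Of 28 listed 27 passed the filter, 22 rose and none fell, with a median log2 fold change of 3.13. Fabp4 (chr3:10204347-10208576), the fatty acid binding protein of adipocytes, was at 116, 129 and 101 FPKM in control and at 10849.5, 10224 and 10773 FPKM in full-length NFIA samples, where it was the gene with the highest FPKM. Its log2 fold change was 6.52 ± 0.36 (adjusted p = 4.28e-08). Plin1, the perilipin that coats the lipid droplet, was at 1.40, 1.35 and 1.35 FPKM and 209, 204 and 209 FPKM, a log2 fold change of 6.46 ± 0.23. Cidec, which enlarges lipid droplets, was at 10.2, 11.8 and 7.04 FPKM and 669, 568 and 641 FPKM, a log2 fold change of 5.89 ± 0.36. The control samples of these droplet and carrier genes were low and measurable. Pck1, the phosphoenolpyruvate carboxykinase that adipocytes use to make glycerol phosphate, was nearly unread in control at 0.0522, 0.0206 and 0 FPKM and stood at 123, 135 and 134 FPKM in full-length NFIA samples (log2 fold change 7.01 ± 0.16). Among genes chosen after their values were seen, Lpl, the lipase that releases fatty acids from lipoproteins, rose from 160.2 ± 11.8 to 1406 ± 110.5 FPKM. Cd36, a fatty acid transporter, rose from 14.3 ± 1.23 to 137 ± 13.2 FPKM. Adig (adipogenin), a small adipocyte protein, rose from 1.30 ± 0.0642 to 187 ± 8.93 FPKM.

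The genes that release stored fat, a step that protein kinase A controls, were higher too. Of 16 listed for lipolysis and its control 12 passed the filter, 9 rose and none fell, with a median of 2.98. Angptl4, a secreted lipase inhibitor, was at 9.59, 10.8 and 9.75 FPKM and 439, 377 and 389 FPKM, a log2 fold change of 5.19 ± 0.18. Mgll, which cleaves the last fatty acid from glycerol, was at 0.993, 1.23 and 0.935 FPKM and 55.2, 48.1 and 50.1 FPKM (4.67 ± 0.13). Pnpla2, the first lipase of the chain and chosen after its values were seen, rose from 22.6 ± 2.87 to 359 ± 20.7 FPKM, and Lipe, hormone-sensitive lipase and chosen likewise, rose from 3.01 ± 0.342 to 59.9 ± 0.777 FPKM. Adrb3, the β3-adrenergic receptor, also chosen after its values were seen, rested on 1 fragment in the 3 control and 91 in the 3 full-length NFIA samples. Its ratio was 102 with a 95% counting interval of 17.9 to 4084, which covers counting error only.

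Fatty acid synthesis had 12 genes that rose and none that fell among 17 tested of 18 listed, with a median of 2.36. Scd1, the stearoyl-CoA desaturase, was at 632, 754 and 607 FPKM in control and 6459, 7233 and 7723 FPKM in full-length NFIA samples, a log2 fold change of 3.43 ± 0.12. Pnpla3, a lipid remodelling enzyme, was at 0.117, 0.104 and 0.0677 FPKM and 19.1, 19.2 and 20.2 FPKM (4.22 ± 0.068). Thrsp, a regulator of lipogenesis, rose from 1.01 ± 0.258 to 19.6 ± 1.44 FPKM. Fasn, fatty acid synthase and chosen after its values were seen, rose from 21.5 ± 0.118 to 137 ± 9.56 FPKM. Insig1, which retains the sterol sensor in the endoplasmic reticulum and stands in both lipid synthesis lists, was at 11.5, 10.997 and 12.4 FPKM and 243, 239.8 and 275 FPKM, a log2 fold change of 4.32 ± 0.072.

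Genes of cholesterol synthesis were higher as well. Of 23 listed genes 22 were found under their names, 21 were tested, 11 rose and none fell, with a median of 1.62. Pmvk, phosphomevalonate kinase, stood apart from the rest at 12.2, 13.9 and 12.1 FPKM in control and 572, 477 and 513 FPKM in full-length NFIA samples, a log2 fold change of 5.25 ± 0.079. Nsdhl was at 13.3 ± 1.20 and 59.4 ± 5.03 FPKM, and Lss, lanosterol synthase, at 4.06 ± 0.148 and 19.8 ± 1.55 FPKM, and both rose. Dhcr7, which makes the last step to cholesterol, was at 12.9 ± 1.05 and 10.9 ± 0.495 FPKM (log2 fold change -0.23 ± 0.069, adjusted p = 0.0121).

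Of 18 secreted proteins of adipocytes 16 were tested, 9 rose and none fell, with a median of 2.77. Rbp4, the plasma retinol carrier, had the largest rise after Nfia itself, from 0.105, 0.124 and 0.303 to 539, 489 and 484 FPKM (log2 fold change 8.75 ± 0.084). Adipoq, adiponectin, was at 5.54, 5.42 and 5.62 FPKM and 386, 339 and 343 FPKM (5.77 ± 0.29). Cfd, the complement factor adipsin, was at 0.148, 0.292 and 0.341 FPKM and 104, 84.0 and 93.3 FPKM (6.23 ± 0.18). Lcn2, lipocalin 2, rose from 0.686 ± 0.290 to 68.2 ± 5.12 FPKM. Lep, leptin and chosen after its values were seen, rested on 2 fragments in full-length NFIA and none in control samples, which is under the floor of 3 fragments, and was not detectable at this depth as a difference.

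Other rises of the greatest size came from genes outside the lists. Cyp2e1, a cytochrome P450, was at 0.367, 0.620 and 0.227 FPKM in control and 522, 449 and 505 FPKM in full-length NFIA samples (log2 fold change 8.46 ± 0.15). Entpd2, an ectonucleotidase that cleaves extracellular ATP, was at 0.305, 0.306 and 0.284 FPKM and 332, 318 and 329 FPKM (7.98 ± 0.14). Slurp1, a small secreted protein of the Ly6 family, was at 0.0867, 0.205 and 0 FPKM and 318, 262 and 268 FPKM (8.01 ± 0.17), and the control values rested on 3 fragments in all. Clec3b, tetranectin, rose from 0.746 ± 0.171 to 344 ± 31.5 FPKM. Wfdc21, a protease inhibitor-like protein, rose from 1.23 ± 0.535 to 314 ± 23.5 FPKM. Gfpt2, which makes glucosamine phosphate for protein glycosylation, was at 0.259, 0.415 and 0.342 FPKM and 174, 177 and 178 FPKM (7.05 ± 0.057).

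Genes of brown fat gave a divided picture. Of 24 listed 11 passed the filter, 2 rose and none fell, with a median of 0.88. Cidea, a lipid droplet protein typical of brown fat, was at 0.274, 0.139 and 0.135 FPKM in control and 26.9, 22.3 and 25.6 FPKM in full-length NFIA samples (log2 fold change 4.45 ± 0.087), and Ppargc1a, described above, was the other. Ucp1 was at 0 in the 3 control samples and at 1.04, 1.22 and 1.000 FPKM in the full-length NFIA samples, on 0 and 85 fragments. With a floor of 3 fragments over the control group it was at least 31.8-fold higher, and it was at 0 in the 6 control and full-length NFIA samples of day 7 without forskolin. It lay under the filter, and the exact permutation test of 3 against 3 gave p = 0.1, the smallest possible. Dio2 was at 20.2, 17.6 and 20.01 FPKM and 35.3, 39.5 and 36.4 FPKM, and Cox8b, a brown fat and muscle subunit of cytochrome oxidase, at 103 ± 9.48 and 271 ± 35.1 FPKM. Both, chosen after their values were seen, stayed inside 3-fold. Cox7a1, a second such subunit, was at 38.6 ± 6.26 and 25.0 ± 1.51 FPKM (log2 fold change -0.60 ± 0.11), and Zic1, a factor of brown fat precursors, at 2.55 ± 0.248 and 1.62 ± 0.155 FPKM (-0.44 ± 0.088). Elovl3, a brown fat elongase chosen after its values were seen, had 0.242, 0.229 and 0.209 FPKM in control and 0.326, 0.548 and 0.490 FPKM in full-length NFIA samples, under the filter.

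Mitochondrial genes moved less than those of the lipid droplet. For β-oxidation 22 of 25 listed were tested, 4 rose, where 4.25% of all genes did, and none fell, with a median of 1.17, and 8 rose after median-ratio scaling. Acadm, which starts β-oxidation of medium-chain acids, was at 45.2, 45.5 and 43.3 FPKM and 310.1, 291 and 316 FPKM (log2 fold change 2.75 ± 0.054). Ucp3, an uncoupling protein of muscle, rose from 2.96 ± 0.292 to 15.7 ± 0.559 FPKM, and Decr1, a reductase for unsaturated fatty acids, from 13.7 ± 0.573 to 46.3 ± 2.67 FPKM. For oxidative phosphorylation 39 of 39 were tested and 1 rose, no larger a share than the 4.25% of all genes. It was cytochrome c (Cycs), from 47.6, 50.01 and 48.8 to 153, 147 and 150.3 FPKM (log2 fold change 1.599 ± 0.057). The list's median was 0.24, and Cycs fell short of 3-fold without control replicate 1 (1.58) or without full-length NFIA replicate 1 (1.58). Ndufa5, a subunit of complex I, was at 109 ± 5.30 and 78.0 ± 9.39 FPKM.

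Muscle genes were lower in full-length NFIA cells on a broad front. Of 44 sarcomere genes 43 were tested, 41 fell (42 without full-length NFIA replicate 1) and none rose, with a median of -2.97. Myl1, a fast muscle myosin light chain, was at 4241, 4342 and 3775 FPKM in control and at 229, 222 and 204 FPKM in full-length NFIA samples (log2 fold change -4.23 ± 0.11). Mybpc1 and Mybpc2 encode myosin binding proteins of slow and fast fibers. Mybpc1 was at 212, 262 and 203 FPKM and 5.68, 6.23 and 5.80 FPKM (-5.03 ± 0.13), and Mybpc2 at 35.97, 51.7 and 33.2 FPKM and 0.809, 0.836 and 0.399 FPKM (-4.60 ± 0.19). Tcap, telethonin, which anchors titin at the Z-disc, fell from 61.5 ± 6.01 to 1.54 ± 0.0386 FPKM. Myl4 and Myh8 are embryonic and perinatal myosin chains. Myl4 was at 1436, 1368 and 1301 FPKM and 94.8, 97.1 and 76.3 FPKM (-3.93 ± 0.10). Myh8 was at 261, 301 and 252 FPKM and 14.2, 18.6 and 16.1 FPKM (-3.98 ± 0.15). The markers Mylpf and Tnnc2 of fast fibers fell less in ratio, from 3641 ± 263 to 483 ± 37.3 FPKM and from 1116 ± 135 to 235 ± 12.2 FPKM. Csrp3, a muscle LIM protein outside the lists, was at 403, 436 and 380.1 FPKM and 15.6, 16.7 and 13.4 FPKM (-4.65 ± 0.082).

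The factors that set this program were lower to unequal degrees. Of 24 genes for myogenic factors and fusion 23 were tested, 9 fell and none rose, with a median of -1.26. Myf6 (chr10:106929916-106931785), the factor MRF4 of maturing fibers, had the largest fall of all genes meeting the rule for named falls, from 166, 203 and 161 to 0.546, 0.321 and 0.579 FPKM (log2 fold change -6.90 ± 0.10). Myog (chr1:136186581-136189124), myogenin, was at 1168, 1188 and 1166 FPKM and 186, 162 and 143 FPKM (-2.84 ± 0.10). Myod1 (chr7:53631844-53634462), the MyoD gene, was at 77.4, 79.5 and 77.6 FPKM and 23.3, 21.3 and 16.8 FPKM (-1.90 ± 0.12), and Myf5, its relative, at 39.6, 44.5 and 40.5 FPKM and 2.85, 3.37 and 1.64 FPKM (-3.58 ± 0.15). The order by size was therefore Myf6, Myf5, Myog and Myod1, and the ranges of ± 1 SE of neighbours in it did not meet. Gm45923, the long non-coding RNA upstream of Myod1, was at 2.28, 2.18 and 2.88 FPKM and 0.658, 0.331 and 0.127 FPKM, a log2 fold change of -1.34 ± 0.16 inside 3-fold on this scale. This low gene was past 3-fold on fragment counts (-2.53, adjusted p = 0.000293) and at a pseudocount of 0.1 (-2.59, adjusted p = 0.000309). Klf5, a Krüppel-like zinc finger factor, fell from 15.4 ± 0.648 to 1.98 ± 0.140 FPKM. Mymx, the micropeptide that fuses myoblasts, and Cav3, the muscle caveolin, fell from 44.5 ± 2.68 to 4.77 ± 0.348 FPKM and from 35.1 ± 4.50 to 2.80 ± 0.625 FPKM. Itga7, the laminin receptor of muscle, was slightly higher at 188 ± 4.17 and 249.9 ± 9.31 FPKM (0.41 ± 0.063).

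Calcium handling and muscle metabolism followed. Of 26 genes for excitation-contraction coupling 23 were tested, 18 fell and none rose, with a median of -2.36. Atp2a1, the calcium pump of fast fibers, was at 542, 691 and 509.9 FPKM and 46.2, 48.6 and 41.2 FPKM (log2 fold change -3.64 ± 0.12). The calcium stores of the reticulum, Casq1 and Casq2, fell from 202 ± 17.9 to 14.97 ± 1.22 FPKM and from 339.7 ± 10.4 to 24.9 ± 3.15 FPKM, and Hrc, which binds beside them, from 102 ± 8.58 to 6.43 ± 0.605 FPKM. Of 17 genes for muscle energy metabolism 15 were tested, 7 fell and 1 rose, with a median of -1.35. Pgam2, the muscle phosphoglycerate mutase, was at 307, 355 and 271 FPKM and 11.2, 10.3 and 8.27 FPKM (-4.84 ± 0.11). Ckm and Ckmt2, the creatine kinases, fell from 418 ± 72.2 to 40.7 ± 5.10 FPKM and from 39.6 ± 5.71 to 4.38 ± 0.892 FPKM. Pygm, muscle glycogen phosphorylase, fell from 93.4 ± 9.93 to 10.6 ± 0.263 FPKM. Ldha, lactate dehydrogenase A, rose from 574, 552 and 512 to 1766, 1593 and 1610.1 FPKM (1.5995 ± 0.076), a change that stayed under 3-fold without full-length NFIA replicate 1 (1.55) or without control replicate 3 (1.55). Pdk4, which closes pyruvate oxidation, was at 42.7 ± 2.30 and 123 ± 14.7 FPKM (1.499 ± 0.14), and it passed 3-fold after median-ratio scaling (1.69). Nmrk2, a nicotinamide riboside kinase of muscle, had one of the 8 largest falls, from 288, 303 and 272 to 8.37, 5.78 and 5.47 FPKM (-5.28 ± 0.15), as had Ctla2b, from 99.0 ± 5.65 to 1.91 ± 0.221 FPKM (uncertain because of its close copy Ctla2a), and the uncharacterized 4930486L24Rik, from 155 ± 14.6 to 1.99 ± 1.03 FPKM.

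**Figure D2:**
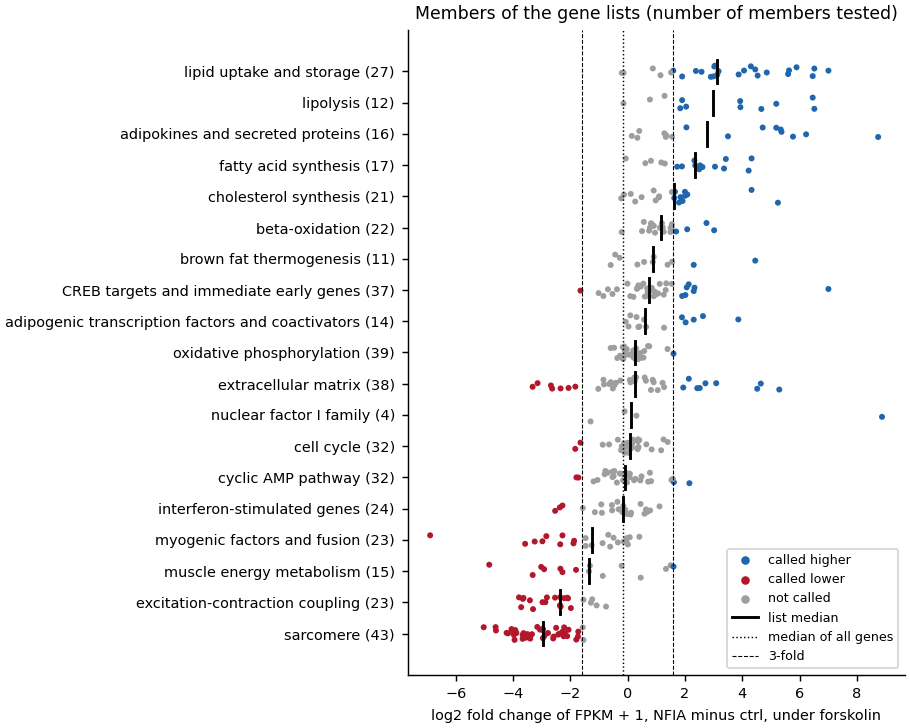
Log2 fold change of full-length NFIA against control cells under forskolin (x axis) for each member tested of 19 gene lists, each point 1 gene, blue where called higher, red where called lower and gray otherwise. With bars for list medians, a dotted line for the median of all genes (-0.17) and dashed lines for 3-fold, the lipid and secreted protein lists lie to the higher side, the muscle lists to the lower side, and the cyclic AMP pathway, cell cycle and interferon lists around the line.

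Among other programs, the extracellular matrix was divided: of 39 genes 38 were tested, 9 rose and 7 fell, where 4.25% and 3.77% of all genes did. The list's median was 0.24 beside -0.17 over all genes. Col15a1, a basement membrane collagen, was at 0.813, 0.577 and 0.577 FPKM and 56.9, 68.9 and 66.0 FPKM (log2 fold change 5.29 ± 0.12). Fmod and Prelp, small leucine-rich proteoglycans, rose from 0.0508 ± 0.0228 to 25.4 ± 2.33 FPKM and from 3.96 ± 0.407 to 113 ± 3.42 FPKM. Omd, a further proteoglycan of that family, fell from 24.8 ± 6.34 to 1.53 ± 0.159 FPKM. Postn, periostin, fell from 217 ± 15.8 to 23.5 ± 1.12 FPKM, and Col1a1, fibrillar collagen chosen after its values were seen, from 246 ± 21.1 to 37.7 ± 7.13 FPKM. Of 35 cell cycle genes 32 were tested and 2 fell, a share near that of all genes (1 rose and 1 fell on fragment counts): Rrm2, ribonucleotide reductase, from 100.1 ± 3.92 to 27.5 ± 3.68 FPKM, and Ccnd3, cyclin D3, from 173 ± 4.79 to 54.7 ± 5.73 FPKM, the latter inside 3-fold after median-ratio scaling (-1.46) and on fragment counts (-1.49). Ccnd2, cyclin D2, was at 8.91 ± 0.483 and 22.6 ± 2.12 FPKM, and Cdkn1c, the inhibitor p57, at 1.37 ± 0.215 and 5.28 ± 1.15 FPKM, inside 3-fold on this scale and past it on fragment counts (2.09) and at a pseudocount of 0.1 (1.86). Of 31 interferon-stimulated genes 24 were tested and 3 fell, where 3.77% of all genes did, with a median of -0.17, and on fragment counts 2 rose and 6 fell with a median of -0.64. The 3 were Ifit1, from 9.34 ± 1.22 to 0.796 ± 0.327 FPKM, the chemokine Ccl2, from 9.21 ± 1.39 to 0.966 ± 0.201 FPKM, and Bst2, tetherin, from 24.9 ± 3.38 to 4.46 ± 1.63 FPKM. Gbp2, a guanylate binding protein, was at 0.543 ± 0.117 and 2.33 ± 0.178 FPKM, inside 3-fold on this scale and past it on fragment counts (2.31) and at a pseudocount of 0.1 (1.93). B2m, of the class I complex, was at 339 ± 14.7 and 584 ± 25.7 FPKM, higher inside 3-fold.

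The pathway through which forskolin acts was read at the level of its own mRNAs. Of 46 genes for receptors, cyclases, kinase subunits, anchors and phosphodiesterases 32 were tested, 2 rose and 2 fell, where 4.25% and 3.77% of all genes did. The counts were 4 and 1 after median-ratio scaling, 5 and 2 on fragment counts and 3 and 2 without full-length NFIA replicate 1. Their median was -0.11 beside -0.17 over all genes, and 0.08 beside -0.01 after median-ratio scaling. Prkar2b, the regulatory subunit of protein kinase A typical of fat, was at 21.9, 20.9 and 24.7 FPKM in control and 90.6, 108 and 113 FPKM in full-length NFIA samples (log2 fold change 2.15 ± 0.09). Prkar2a, its broadly expressed relative, went the other way, from 37.8, 40.7 and 38.3 to 9.51, 11.1 and 11.02 FPKM (-1.79 ± 0.066). Pkia, an inhibitor of the kinase, fell from 33.2 ± 3.70 to 9.34 ± 0.610 FPKM, and Akap12, an anchor for it, rose from 1.09 ± 0.188 to 5.39 ± 0.655 FPKM. The call for Pkia was lost with median-ratio scaling (-1.54), and that for Akap12 without full-length NFIA replicate 3 (1.53) or without control replicate 3 (1.56). Pde4b and Pde4d, which break down cyclic AMP and were chosen after their values were seen, were at 25.9 ± 0.560 and 15.7 ± 1.16 FPKM and at 11.99 ± 0.188 and 8.99 ± 0.134 FPKM, and neither was called.

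Several CREB targets and immediate early genes, the transcripts that cyclic AMP is known to raise, were higher in full-length NFIA than in control cells under forskolin. Of 41 listed 37 were tested, 7 rose and 1 fell (10 and 0 on fragment counts) where 4.25% and 3.77% of all genes did, with a median log2 fold change of 0.74, beside -0.08 for the same list without forskolin. Nr4a1 (chr15:101097277-101105223), Nr4a2 (chr2:56959241-56976414) and Nr4a3 (chr4:48058025-48099319) encode orphan nuclear receptors that cyclic AMP induces within the hour. Nr4a1 was at 27.0, 31.9 and 25.6 FPKM in control and 138, 120.5 and 121 FPKM in full-length NFIA samples (2.13 ± 0.10). Nr4a2 was at 1.46, 1.22 and 1.62 FPKM and 11.5, 10.1 and 12.2 FPKM (2.33 ± 0.13). Nr4a3 was at 10.8, 12.1 and 9.69 FPKM and 47.5, 46.5 and 51.1 FPKM (2.06 ± 0.092). For each of these receptors every full-length NFIA sample was above every control sample, while 75.9% of all genes tested had no overlap between the groups in either direction. Pck1 and Ppargc1a, described above, were among the 7, with Egr1 (5.41 and 22.9 FPKM on average) and Klf4 (14.1 and 59.8 FPKM), early zinc finger factors chosen after their values were seen. Rgs2, a brake on G protein signals, was the member that fell, from 88.8, 109 and 102 to 33.5, 28.6 and 31.1 FPKM. The fall of Rgs2 (-1.65 ± 0.093) stayed inside 3-fold with median-ratio scaling (-1.46). Sik1, a kinase that restrains CREB coactivators, was at 57.9 ± 4.40 and 28.1 ± 1.22 FPKM (-1.02 ± 0.062). Crem, Fos and Dusp1, chosen after their values were seen, were at 2.52 ± 0.182 and 6.62 ± 0.0948, 2.503 ± 0.248 and 7.37 ± 0.255, and 19.3 ± 0.602 and 49.8 ± 1.87 FPKM, and none reached 3-fold on this scale, while Fos passed it on fragment counts (1.75).

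Promoter sequences of the 3 receptors and of Pck1 are shown because the receptors had the largest forskolin-dependent differences of the CREB list, Pck1 had its largest fold change, and CREB is known to bind cyclic AMP response elements. Each is the 250 bases before the start of the gene as RefSeq gives it on GRCm38.p6, which is another build than the mm9 of the expression data, written 5′ to 3′ on the gene's strand. Capitals mark the letters TGACG or, read on the opposite strand, CGTCA, which form the core of such an element. The windows lie at chr15:101266596-101266845 (plus strand), chr2:57124004-57124253 (minus), chr4:48045055-48045304 (plus) and chr2:173152823-173153072 (plus).
Nr4a1: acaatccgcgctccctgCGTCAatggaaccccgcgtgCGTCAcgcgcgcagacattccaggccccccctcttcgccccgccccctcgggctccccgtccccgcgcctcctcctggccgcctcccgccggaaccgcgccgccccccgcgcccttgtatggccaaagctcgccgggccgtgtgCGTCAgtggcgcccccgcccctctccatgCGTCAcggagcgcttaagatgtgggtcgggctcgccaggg
Nr4a2: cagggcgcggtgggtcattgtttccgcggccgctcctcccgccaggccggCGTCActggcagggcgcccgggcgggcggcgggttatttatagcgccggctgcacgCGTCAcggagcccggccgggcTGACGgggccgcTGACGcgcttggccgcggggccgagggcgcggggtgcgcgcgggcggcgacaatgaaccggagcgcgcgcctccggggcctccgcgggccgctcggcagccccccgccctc
Nr4a3: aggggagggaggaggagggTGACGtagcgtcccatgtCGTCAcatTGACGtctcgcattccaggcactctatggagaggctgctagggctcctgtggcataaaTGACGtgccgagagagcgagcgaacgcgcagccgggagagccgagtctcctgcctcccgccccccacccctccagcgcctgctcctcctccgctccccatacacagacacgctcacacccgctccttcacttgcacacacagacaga
Pck1: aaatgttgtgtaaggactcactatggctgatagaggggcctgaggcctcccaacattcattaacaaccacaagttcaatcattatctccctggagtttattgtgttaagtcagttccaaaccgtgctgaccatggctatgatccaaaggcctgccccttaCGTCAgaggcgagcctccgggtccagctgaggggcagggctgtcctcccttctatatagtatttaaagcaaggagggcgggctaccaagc

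The letters occur 4 times in the window of each receptor. They begin 233, 213, 69 and 40 bases before the start of Nr4a1, 200, 144, 123 and 111 bases before that of Nr4a2, and 231, 213, 205 and 147 bases before that of Nr4a3. The window of Pck1 has 1 match, 90 bases before the start. Of 32851 such windows from 27025 genes, 5836 (17.8%) hold the letters at least once on either strand and 45 (0.137%) at least 4 times. A match describes the letters of the window and shows no binding.

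Whether the effect of NFIA differed with and without forskolin was tested over the 18 samples at day 7, as the difference between the effect with and the effect without. Of 12245 genes tested, 48 had a higher effect under forskolin (0.392%) and 22 a lower one (0.18%) past 3-fold. At an adjusted p under 0.05 alone 3752 genes passed (30.6%), 1122 higher and 2630 lower, or 29.9% higher, and after median-ratio scaling 1539 higher and 1862 lower, or 45.3% higher. Among the 19 lists, 3 genes of the CREB list, Thbs1 of the matrix list and Pmvk of the cholesterol list were called higher, and Pnpla3 in fatty acid synthesis and G0s2 in lipolysis were called lower. None of the members of the sarcomere, myogenic, calcium or lipid storage lists was called. In the same order the medians of these 4 lists were -0.28, -0.25, -0.24 and 0.07, beside -0.10 over all genes and 0.73 for the CREB list.

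**Figure D3:**
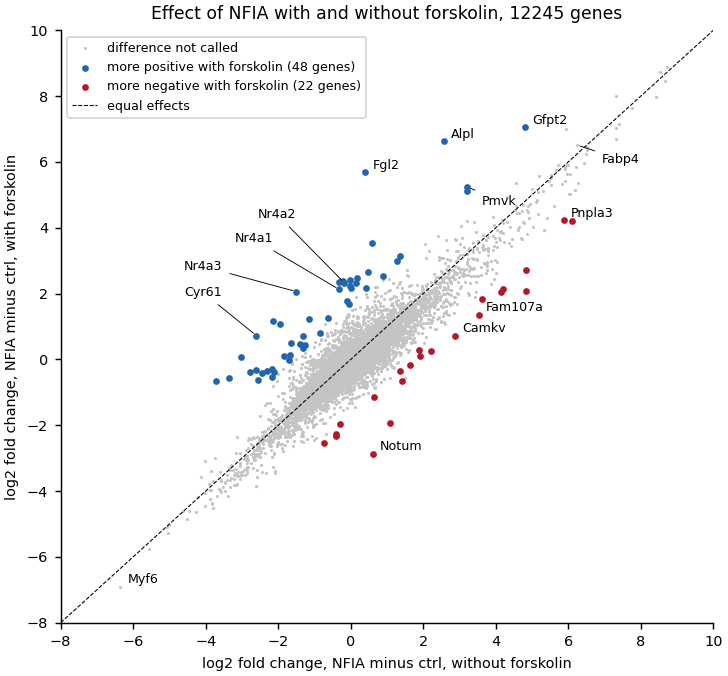
Effect of full-length NFIA against control cells at day 7 without forskolin (x axis) and with forskolin (y axis), both as log2 fold changes, each point 1 gene. Gray points, the genes whose difference was not called, lie along the dashed line of equal effects, with the 48 genes of a higher effect under forskolin (blue) above it and the 22 of a lower effect (red) below it.

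The receptors Nr4a1, Nr4a2 and Nr4a3 accounted for the calls in the CREB list. Without forskolin Nr4a1 was at 15.4, 15.8 and 15.3 FPKM in control and 12.2, 12.3 and 12.1 FPKM in full-length NFIA samples, an effect of -0.32 ± 0.088 on the log2 scale. Forskolin moved it by 0.81 ± 0.088 on the log2 scale in control and by 3.27 ± 0.088 in full-length NFIA cells, and the difference of the effect was 2.45 ± 0.12 (adjusted p = 1.21e-09). Nr4a2 was at 1.14, 1.05 and 1.12 FPKM and 0.968, 0.783 and 0.811 FPKM without forskolin, and its difference was 2.52 ± 0.15 (adjusted p = 1.23e-08). Nr4a3 was at 5.06, 4.76 and 5.62 FPKM and 1.31, 1.18 and 1.02 FPKM without forskolin, so NFIA cells had less of it before treatment and more of it after, with a difference of 3.56 ± 0.14 (adjusted p = 6.16e-11). In control cells the response of Nr4a3 was 0.95 ± 0.10, and that of Nr4a2, 0.21 ± 0.11, missed the threshold (adjusted p = 0.206). Pck1 was at 0.00836 ± 0.0145 FPKM in control and 60.4 ± 2.504 FPKM in full-length NFIA samples without forskolin, and its difference of 1.08 ± 0.29 stayed inside 3-fold (adjusted p = 0.0105). Ppargc1a had 0.946, 1.25 and 1.04 FPKM in control and 4.30, 4.25 and 4.16 FPKM in full-length NFIA samples without forskolin, with a difference of 0.97 ± 0.14 (adjusted p = 8.98e-05).

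The response to forskolin was also read within each kind of cells. Pde4b went from 5.87 ± 0.507 to 25.9 ± 0.560 FPKM in control and from 2.62 ± 0.196 to 15.7 ± 1.16 FPKM in full-length NFIA cells, a response of 1.97 ± 0.073 and 2.20 ± 0.073, and its difference was 0.23 ± 0.10 (adjusted p = 0.101). Sik1 responded by 1.07 ± 0.077 in control and 1.96 ± 0.077 in full-length NFIA cells, and Per1, a clock gene with cyclic AMP response elements, by 0.63 ± 0.07 and 0.98 ± 0.07. Dio2 responded by 0.48 ± 0.10 and 1.66 ± 0.10, Crem by 0.37 ± 0.082 and 1.53 ± 0.082, and Dusp1 by 0.11 ± 0.071 and 1.54 ± 0.071, of which the control value missed the threshold (adjusted p = 0.336). The differences were 0.89 ± 0.11, 0.35 ± 0.10, 1.19 ± 0.14, 1.16 ± 0.12 and 1.43 ± 0.10 in that order, each higher in full-length NFIA cells at an adjusted p under 0.05 and inside 3-fold. Per1, Dio2, Crem, Dusp1 and Pde4b were chosen after their values were seen.

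Genes outside the CREB list had the largest differences. Fgl2, a fibrinogen-like protein, was at 0.122, 0.378 and 0.385 FPKM in control and 0.610, 0.811 and 0.674 FPKM in full-length NFIA samples without forskolin, and at 0.278, 0.457 and 0.501 FPKM and 66.6, 67.0 and 80.8 FPKM with it. High values were thus found in the 3 full-length NFIA samples with forskolin alone of these 12 samples, and the difference was 5.28 ± 0.22 (adjusted p = 1.45e-10). Alpl (chr4:137297648-137352299), tissue-nonspecific alkaline phosphatase, was at 0, 0.0221 and 0.0634 FPKM and 4.54, 5.07 and 5.79 FPKM without forskolin and at 0.304, 0.400 and 0.146 FPKM and 128, 128 and 119.9 FPKM with it, a difference of 4.05 ± 0.14 (adjusted p = 2.24e-11). Pmvk, described above, was at 8.86 ± 0.316 and 90.6 ± 1.58 FPKM without forskolin, and its difference was 2.03 ± 0.11. Gfpt2 was at 0.0961 ± 0.0410 and 29.97 ± 2.86 FPKM without forskolin, with a difference of 2.24 ± 0.12. Alpl and Gfpt2 lost the call in the limma-voom fit on fragment counts, where the differences were 1.45 (adjusted p = 0.177) and 0.89 (adjusted p = 0.23), and Gfpt2 also at a pseudocount of 0.1 (1.39). Cnn1 was at 0.446 ± 0.316 and 0.386 ± 0.164 FPKM without forskolin, with a difference of 1.72 ± 0.19, and 1.57 without the control replicate 1 that had no forskolin.

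Cyr61, a matricellular protein induced by cell stretch and serum, had another pattern. It was at 214, 179 and 164 FPKM in control samples without forskolin and 40.4, 31.5 and 40.4 FPKM with it, and at 30.3, 25.2 and 33.6 FPKM and 65.5, 60.9 and 60.3 FPKM in full-length NFIA samples. It was thus lower after forskolin in control and higher after it in full-length NFIA cells, and the difference was 3.33 ± 0.15 (adjusted p = 3.3e-10). Of the 48 genes with a higher effect, 28 had their highest group mean in full-length NFIA cells with forskolin, 19 in control cells without it and 1 in control cells with it. Of the 19, 15 bear symbols of small RNAs, pseudogenes or gene models, against 3 of the 28. Snord91a, a small nucleolar RNA, was at 6.27 ± 4.75 and 0.581 ± 1.01 FPKM without forskolin and 1.89 ± 1.4999 and 5.14 ± 2.21 FPKM with it (difference 3.30 ± 0.83). Its transcript is short, so single fragments weigh heavily in its FPKM.

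Notum, a secreted enzyme that inactivates Wnt proteins, had the largest lower difference. It was at 2.57, 2.97 and 3.08 FPKM in control and 4.19, 5.602 and 5.03 FPKM in full-length NFIA samples without forskolin, and at 20.3, 23.5 and 18.7 FPKM and 2.06, 1.76 and 2.15 FPKM with it. Forskolin moved it by 2.49 ± 0.16 in control and by -0.99 ± 0.16 in full-length NFIA cells, and the difference was -3.48 ± 0.22 (adjusted p = 1.9e-08). Fam107a, an actin-associated protein, was at 16.4 ± 1.76 FPKM in full-length NFIA cells without forskolin and 2.56 ± 0.307 FPKM with it, against 0.512 ± 0.119 and 0.391 ± 0.0425 FPKM in control cells (difference -2.17 ± 0.13). Camkv, a pseudokinase, was at 6.34, 7.14 and 5.69 FPKM in full-length NFIA samples without forskolin and 0.764, 0.622 and 0.607 FPKM with it, and near 0 in control samples (difference -2.17 ± 0.11). Pnpla3 was at 64.4 ± 3.95 FPKM without and 19.5 ± 0.603 FPKM with forskolin in full-length NFIA cells, a difference of -1.65 ± 0.25 that on fragment counts was -1.42 (adjusted p = 0.173). G0s2, the inhibitor of the lipase of Pnpla2 and chosen after its values were seen, was at 918 ± 48.8 FPKM without and 227 ± 13.5 FPKM with forskolin in full-length NFIA cells and at 50.7 ± 2.56 and 54.4 ± 2.94 FPKM in control cells, a difference of -2.11 ± 0.19 (adjusted p = 7.78e-07). Snord64, a small nucleolar RNA, had 0 fragments in control and 2 in full-length NFIA samples without forskolin, and 8 and 0 with it (difference -3.03 ± 0.67). Mir6392, a microRNA precursor, was at 32.9, 41.4 and 25.1 FPKM in full-length NFIA samples without forskolin and 5.05, 1.06 and 4.87 FPKM with it, on 157 and 18 fragments, against 1 and 0 fragments in control samples. Its difference of -2.77 ± 0.54 was of similar size but not called on fragment counts (-2.55, adjusted p = 0.0992) or at a pseudocount of 0.1 (-2.45, adjusted p = 0.175). Of the 22 genes with a lower effect, 12 had their highest group mean in full-length NFIA cells without forskolin, 7 in control cells with it and 3 in full-length NFIA cells with it.

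**Figure D4:**
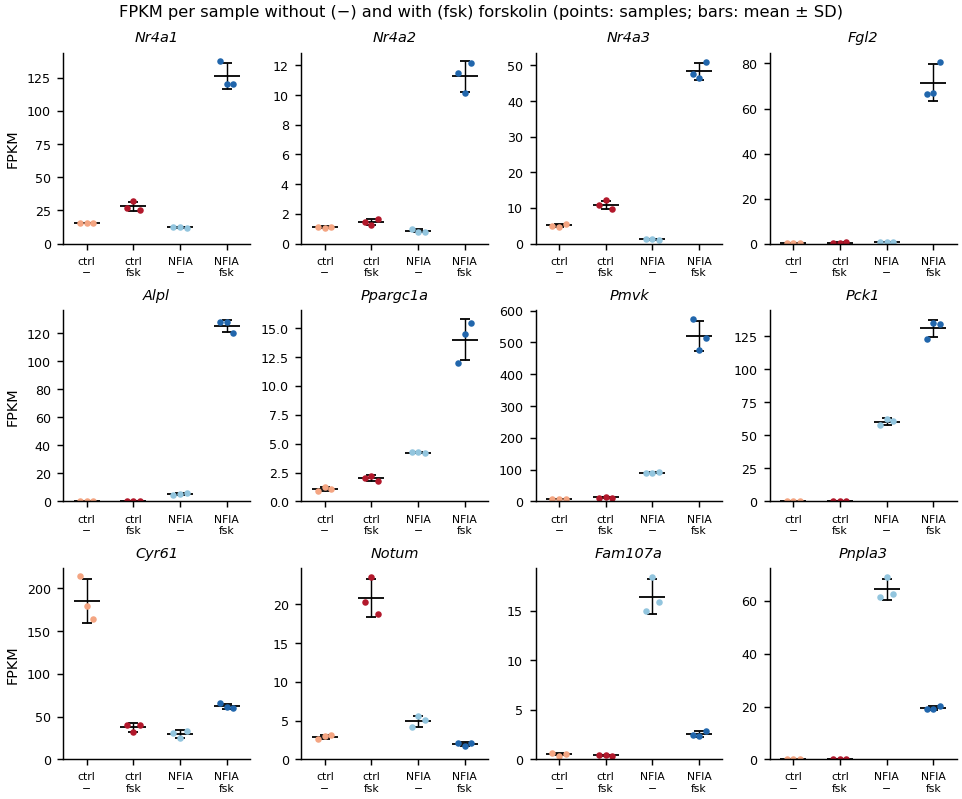
FPKM (linear axes) of 12 genes in the 12 control and full-length NFIA samples at day 7, without (−) and with (fsk) forskolin, with points for samples and bars for mean ± SD. Nr4a1, Nr4a2, Nr4a3, Fgl2 and Alpl stand highest in the 3 full-length NFIA samples with forskolin, and Notum in the 3 control samples with forskolin.

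Promoter windows were also counted over both sets of genes, with the largest number of matches taken for a gene with several starts. Of the 48 genes with a higher effect 31 had a window, 7 held TGACG or CGTCA (22.6%), and 3 held them at least 4 times, these being the receptors shown. Of the 22 with a lower effect 14 had a window and 4 held the letters (28.6%). Over 27025 genes with a window 5347 held them (19.8%), and 44 held them at least 4 times. Single matches in Alpl, Ucp1, Ppargc1a and Fam107a and none in Fgl2, Gfpt2, Pmvk and Camkv were the counts of other named genes.

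The Δpro#3 mutant under the same treatment was set beside full-length NFIA for the genes that the study names. It was itself expressed, at 344, 262 and 277 FPKM of Nfia. Of 15 such genes tested 14 differed between the mutant and full-length NFIA cells at an adjusted p under 0.05, where 66.2% of all genes did, 8 of them lower and 6 higher in mutant cells. The study shows several of these genes from the RNA-seq of these same cells, and they include the introduced Nfia. The count therefore describes them and is no independent test. Pparg was at 6.20, 6.93 and 5.71 FPKM in mutant samples and differed from full-length NFIA by -2.31 ± 0.07 (adjusted p = 6.29e-10). Fabp4 was at 386, 103 and 137 FPKM (-5.90 ± 0.36), Cebpa at 8.99, 7.51 and 8.63 FPKM (-2.40 ± 0.066), Cidea at 0.0581, 0.102 and 0.0676 FPKM (-4.59 ± 0.087) and Ppargc1a at 1.52, 0.982 and 1.09 FPKM (-2.77 ± 0.12). Ucp1 was at 0.452, 0.397 and 0.192 FPKM in mutant samples. The muscle genes and Klf5 in mutant cells lay between the other groups: Myod1 was at 47.3, 54.7 and 62.9 FPKM (1.39 ± 0.12), Myog at 493, 614 and 575 FPKM (1.77 ± 0.10), Myl4 at 815, 896 and 746 FPKM (3.18 ± 0.10), Myh8 at 207, 142 and 133 FPKM (3.21 ± 0.15) and Klf5 at 7.48, 7.13 and 8.26 FPKM (1.53 ± 0.071). Gm45923 was the 1 gene without such a difference, at 0.261, 0.688 and 0.228 FPKM (0.02 ± 0.16, adjusted p = 0.904). The receptor Nr4a1 was at 17.1, 20.5 and 22.1 FPKM, Nr4a2 at 1.58, 2.20 and 2.75 FPKM and Nr4a3 at 5.63, 4.38 and 4.90 FPKM in mutant samples, given side by side with no test, while Gfpt2 was at 109.9, 104 and 102 FPKM and Clec3b at 115, 123 and 152 FPKM, well above the control samples.

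**Figure D5:**
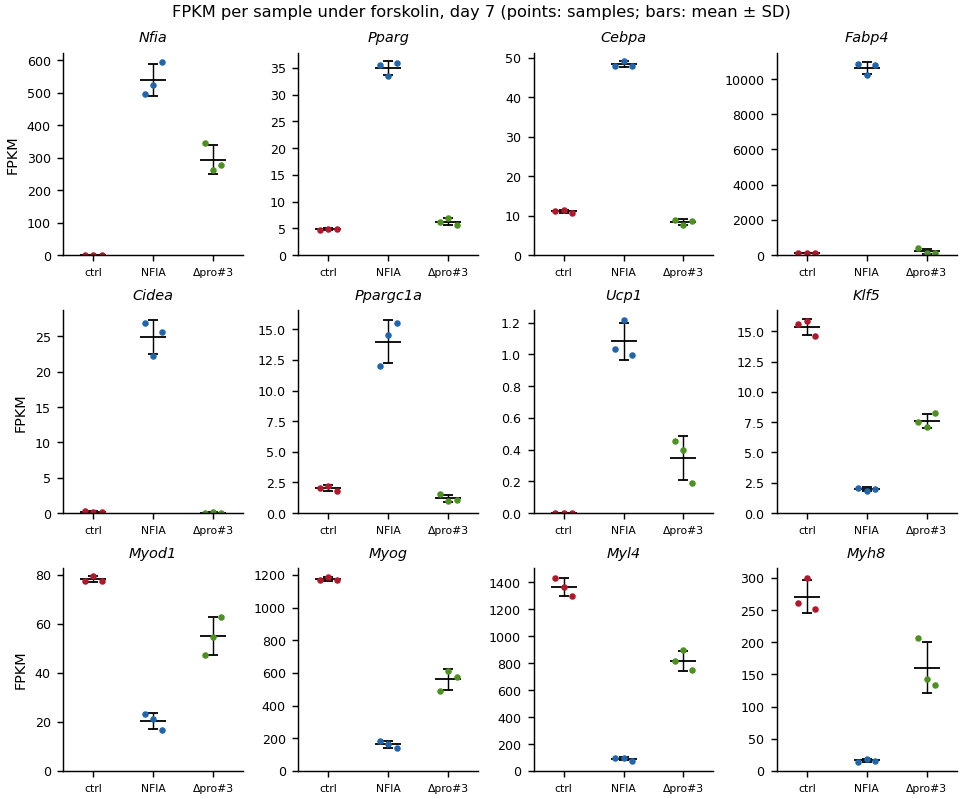
FPKM (linear axes) of 12 genes that the study names, in each of the 3 control, 3 full-length NFIA and 3 Δpro#3 samples under forskolin, with points for samples and bars for mean ± SD. Pparg, Cebpa, Fabp4, Cidea, Ppargc1a and Ucp1 stand highest in the full-length NFIA samples, and Myod1, Myog, Myl4, Myh8 and Klf5 stand lowest there, and for these last 5 genes the mutant samples lie between the other groups.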

How the data were processed

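RNA from C2C12 cells was sequenced as stranded polyA libraries. Per the labels and the study's methods, the authors aligned reads to mm9 with STAR 2.5.3a, kept uniquely aligned reads, counted them per gene on the matching strand and deposited the values as FPKM. The gene annotation they used is not given in the sources used here, and gene positions are those of GENCODE vM1 on that build. Reads that fit several near-identical genes were not kept, which lowers such genes.

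Groups were taken from the sample titles. Each file held 24825 genes, and 26 date-like symbols were left under the names in the files. The main test was limma's moderated test with a mean-variance trend on log2(FPKM + 1), a pseudocount of 1, in 9 samples under forskolin at day 7 (3 of each of the 3 kinds of cells), for genes at 0.5 FPKM or more on average, with Benjamini-Hochberg adjustment over all genes tested. A gene that passes this filter only through the group where it is high had to differ, so counts over list members describe those that passed. The difference of the NFIA effect with and without forskolin was fitted in the same way in 18 samples of day 7. FPKM values were whole multiples of 1 fragment for 100% of values (tolerance 0.05), so fragments could be recovered, and a limma-voom test with trimmed-mean scaling was run on them. Alternatives were a pseudocount of 0.1, median-ratio scaling over genes at 1 FPKM or more in every sample, no filter, a minimum mean FPKM of 5, a fit without the mean-variance trend, a fit of the compared samples alone, a replicate block and leaving out each sample. Intervals of ratios are 95% exact counting intervals and cover counting error only, and a floor of 3 fragments over a group was used for values of 0.

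Members and gene lists were chosen with earlier results of these data known. Named are (a) genes that the study names for these cells, (b) the 8 largest rises and falls whose samples did not overlap and averaged at least 1 FPKM, (c) up to 4 called members of each of 19 gene and 9 marker lists and up to 2 that moved the other way, and (d) the 5 largest differences in each direction with and without forskolin at that mean. Other names were chosen after their values were seen, and the text says so at each. Some genes that meet these rules are not reported here. On simulated data with 11927 genes drawn for the comparison under forskolin, of which 200 were changed, the test called 89% of 4-fold and 99% of 8-fold changes and 0 unchanged genes. The 200 were drawn from genes at 5 FPKM or more on average, every gene had the same set spread, and all others were unchanged. Performance on lower genes, with the wider spread of full-length NFIA replicate 1 or with as many changes as here was not tested. Promoter windows came from RefSeq on GRCm38.p6. Computations used R 4.3.3, limma 3.58.1, Python 3.11.15, scipy 1.17.1 and matplotlib 3.10.9.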

Additional observations from a re-analysis of the deposited data

Results flagged for a closer look

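The effect of NFIA against control cells differed with and without forskolin by the test of that difference for many genes, and those that the rules for named genes chose are given here, 16 in all, with values on the log2 scale. Higher under forskolin were Fgl2 (5.28), Alpl (4.05), Nr4a3 (3.56), Cyr61 (3.33), Snord91a (3.30), Nr4a2 (2.52), Nr4a1 (2.45), Gfpt2 (2.24), Pmvk (2.03) and Cnn1 (1.72). Lower under forskolin were Notum (-3.48), Snord64 (-3.03), Mir6392 (-2.77), Fam107a (-2.17), Camkv (-2.17) and Pnpla3 (-1.65). Snord64, Snord91a and Mir6392 are short transcripts, and Snord64 rested on 8 fragments in control samples with forskolin and 2 in full-length NFIA samples without it. The adjusted p of these 3 was 0.0028, 0.00663 and 0.00101, and across the other 13 genes the highest was 0.000145.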

How the results depend on the processing

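Under forskolin 515 genes were called higher and 457 lower. On recovered fragments (limma-voom) the counts were 841 and 698, 709 and 755 at a pseudocount of 0.1, and at a minimum mean FPKM of 5 they were 367 and 359 and after median-ratio scaling 603 and 397. Leaving out 1 sample at a time gave 504 to 522 higher and 451 to 472 lower. The difference of the effect with and without forskolin was called for 48 genes higher and 22 lower, and the counts were 85 and 63 on fragments, 77 and 64 with a pseudocount of 0.1, 27 and 15 with a minimum mean FPKM of 5, and 44 to 54 and 21 to 29 with 1 sample left out. Of the 972 genes called under forskolin, 953 were called in the same direction on fragments and 972 with the smaller pseudocount, and of the 70 called differences 61 and 67 were. The smaller pseudocount and the fragment scale count low genes more, and the stricter filter tested fewer genes.

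With a replicate block 515 and 457 genes were called under forskolin and 47 and 22 differences. Deviations from the group means did not correlate on average between samples with the same number (mean r -0.00195 over 9 samples, range -0.164 to 0.0772, and 0.00191 over the 12 of day 7 with and without forskolin, range -0.170 to 0.153). Whether samples with the same number shared a culture or a batch was not tested.

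Direction changed for values near 0. Nfib became 0.038 on fragments and 0.045 with median-ratio scaling, and the Δpro#3 difference of Gm45923 became -0.012 with that scaling. Of the differences with and without forskolin, Cidea became 0.0016 with that scaling, and Gm45923 became 0.21 on fragments and 0.043 with a pseudocount of 0.1. Leaving out 1 sample put Gm45923 between -0.16 and 0.13, Myh8 between -0.22 and 0.038 and Myog between -0.30 and 0.013, the upper ends of the last pair without replicate 1 of full-length NFIA without forskolin. The cause was not tested. For the comparison under forskolin each pair of a named gene and an alternative setting was counted. Direction and side of the threshold were kept in 2803 pairs, the threshold was crossed outward in 16 and inward in 12, and Nfib alone changed direction (2). No trend, no filter, a replicate block, the compared samples alone and leaving out a Δpro#3 sample changed none of 168 genes, which raises the count of kept pairs. Alpl, Gfpt2, Mir6392, Pnpla3 and Cnn1 lost the call of a difference under at least 1 setting, and Klf5 gained one between mutant and full-length NFIA (1.89, pseudocount 0.1). Values under about 3 fragments a group are limited by depth.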

Other observations

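Genes outside the lists were read for further biology, and those named here were chosen after their values were seen. They stand for no pathway, and other members of their families were not counted. C3 and C4b, complement components, rose from 2.59 ± 1.04 to 361 ± 8.99 FPKM and from 0.103 ± 0.0269 to 20.8 ± 2.53 FPKM. S100a8, a calcium-binding alarmin of neutrophils, rose from 6.19 ± 2.72 to 126 ± 13.1 FPKM, Camp, the cathelicidin peptide, from 0.691 ± 0.105 to 18.8 ± 4.01 FPKM, and Orm3, an acute phase protein with close copies in the genome, from 20.2 ± 3.74 to 92.4 ± 7.70 FPKM. Among chemokines, Ccl7 and Ccl8, attractants of monocytes, fell from 23.8 ± 3.04 to 2.15 ± 0.816 FPKM and from 10.3 ± 0.987 to 0.0858 ± 0.149 FPKM, the latter on 280 and 2 fragments. Ccl11, eotaxin, fell from 25.4 ± 1.54 to 1.28 ± 0.725 FPKM, and Cxcl5, an attractant of neutrophils, from 21.9 ± 2.62 to 3.82 ± 1.28 FPKM.

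Receptors were among the rises chosen. Ffar4, a receptor for long-chain fatty acids, was at 0, 0.0386 and 0 FPKM in control and 45.1, 45.0 and 47.0 FPKM in full-length NFIA samples, on 1 and 3013 fragments. Mc5r, a melanocortin receptor, rose from 0.229 ± 0.110 to 12.5 ± 1.65 FPKM, Mrap, an accessory protein of melanocortin receptors, from 2.33 ± 0.983 to 109 ± 7.61 FPKM, and Tshr, the thyrotropin receptor, from 0.0549 ± 0.0386 to 6.09 ± 0.660 FPKM. Ramp2 and Ramp3, which set the ligand of calcitonin-type receptors, were at 3.77 ± 0.690 and 75.9 ± 4.79 FPKM and at 2.58 ± 0.458 and 17.5 ± 2.45 FPKM. Of enzymes, Aldh1a1, which makes retinoic acid, rose from 0.0507 ± 0.0347 to 12.4 ± 0.833 FPKM, Rdh16, a retinol dehydrogenase, from 0.114 ± 0.0417 to 13.98 ± 1.43 FPKM and Ephx2, an epoxide hydrolase, from 12.5 ± 1.30 to 88.3 ± 0.814 FPKM. The carboxylesterases Ces1d and Ces1f rose from 0.279 ± 0.0423 to 19.9 ± 0.703 FPKM and from 0.0310 ± 0.00900 to 60.2 ± 1.84 FPKM. The imprinted gene H19 fell from 10825 ± 701 to 1242 ± 246 FPKM, its neighbour Igf2 from 204 ± 7.24 to 33.6 ± 3.81 FPKM, and Mgp, matrix Gla protein, from 2146 ± 98.1 to 199.5 ± 37.0 FPKM. Metallothioneins were abundant in both kinds of cells, with Mt1 at 1119 ± 194 and 2465 ± 454 FPKM and Mt2 at 1479.6 ± 238 and 3214 ± 538 FPKM.

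Further genes had a difference with and without forskolin. Tdo2, which starts tryptophan breakdown, was at 0.496 ± 0.167 FPKM without and 10.7 ± 1.23 FPKM with forskolin in full-length NFIA cells, against 0 fragments in control cells with it, which makes it at least 314-fold higher over the floor (difference 2.97 ± 0.12). Thbs1, the matricellular protein thrombospondin, was at 96.0 ± 7.91 and 93.5 ± 0.676 FPKM without and 15.3 ± 1.27 and 86.9 ± 9.20 FPKM with forskolin (difference 2.46 ± 0.15). Gadd45g, a stress sensor, differed by 2.16 ± 0.18, Serpine2, a protease inhibitor, by 1.75 ± 0.14, Fgf10, a growth factor of fat precursors, by 1.88 ± 0.18, and Ddit4, an inhibitor of mTOR signalling, by -1.79 ± 0.17. The pseudogenes Rpl14-ps1 and Gm15501, which resemble ribosomal protein genes and whose reads may not be told apart from them, were at 81.0 ± 7.46 and 29.2 ± 2.055 FPKM in control and 5.204 ± 0.787 and 1.96 ± 0.284 FPKM in full-length NFIA cells without forskolin. With forskolin they were at 9.84 ± 2.41 and 3.34 ± 0.946 FPKM in control and 5.79 ± 0.429 and 1.92 ± 0.346 FPKM in full-length NFIA cells, so the differences were 3.08 ± 0.20 and 2.80 ± 0.23.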
